A study of Mus musculus with 8 samples.

Results

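The genes described here are 10 genes of sodium and potassium transport in the distal nephron, the part of the kidney tubule beyond the loop of Henle's thin limbs. They were chosen by name from a table of 55401 genes, and all 10 were among the 15150 genes expressed highly enough to be tested. In the thick ascending limb, *Slc12a1* encodes the cotransporter NKCC2 that loop diuretics block, *Kcnj1* the channel ROMK that returns potassium to the lumen, and *Umod* uromodulin, the most abundant protein of normal urine. In the distal convoluted tubule, *Slc12a3* encodes the thiazide-sensitive cotransporter NCC. In the connecting tubule and collecting duct, *Scnn1a*, *Scnn1b* and *Scnn1g* encode the alpha, beta and gamma subunits of the epithelial sodium channel ENaC, which aldosterone controls. *Wnk1* and *Wnk4* encode kinases that, through SPAK and OSR1, set the phosphorylation of NCC and NKCC2, and *Klhl3* encodes the adaptor by which a cullin 3 ubiquitin ligase degrades WNK kinases.

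Kidney mRNA was sequenced from 8 male diabetic mice, with 1 library per mouse. Of these, 4 mice received rFGF4, an N-truncated recombinant human fibroblast growth factor 4, and 4 received PBS vehicle. The sample labels call the vehicle group the *db*/*db* model, leptin receptor mutants that develop type 2 diabetes, while the study's text gives streptozotocin (STZ)-induced diabetic mice for the sequencing, and the files do not settle which was used. In both models, rFGF4 was injected intraperitoneally over 8 weeks, on alternate days, at 1 mg/kg. The start of treatment is given as 12 weeks of age in both models, with STZ at 6 weeks of age in the second, whereas the methods place it 8 weeks after STZ given at 8 weeks of age. No non-diabetic kidney was sequenced in these libraries, so the values below compare treated with untreated diabetic mice only. Mice are numbered as in the labels, 2, 3, 4 and 5 for vehicle and 1, 2, 3 and 5 for rFGF4.

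Expression is given as FPKM, fragments per kilobase of transcript scaled to the mapped fragments of the library, so levels can be set side by side between genes. No counts were used here, the number of fragments behind a value is unknown, and depth relative to vehicle mouse 2 was estimated at 0.905 to 1.12. rFGF4 mouse 1 and vehicle mouse 5 stood apart from the other 6 libraries, with limma library weights of 0.271 and 0.410 against at least 0.901 in the others. Their summed proximal tubule markers were 1247 and 3600 FPKM against 2981 to 7967 in the others, and their summed macrophage markers were 427 and 459 against 25.5 to 183. The summed injured tubule markers (*Havcr1*, *Lcn2*, *Krt20* and *Vcam1*) were 789 in rFGF4 mouse 1 and 231 in vehicle mouse 5, against 4.21 to 208 in the others. Mitochondrial transcripts made up 19.0% and 24.4% of the summed FPKM in these mice, against 24.7% to 38.4% in the others. The summed B and plasma cell markers were 22902 FPKM in vehicle mouse 5 against at most 2715 in the others, and the summed red blood cell markers were 120 in rFGF4 mouse 1 against at least 437. Because bulk tissue was sequenced, fewer cells of a type and less RNA per cell cannot be told apart.

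The markers of the segments that carry these genes were present in every library. The 6 thick ascending limb markers summed to 882 to 1279 FPKM with vehicle and 952 to 1434 with rFGF4. The 5 distal convoluted tubule markers summed to 147 to 311 with vehicle and 77.4 to 254 with rFGF4, and rFGF4 mouse 1 held the lowest sum. The 7 markers of connecting tubule and principal cells summed to 349 to 506 with vehicle and 257 to 514 with rFGF4, again with rFGF4 mouse 1 lowest. The lists hold several of the 10 genes themselves. *Umod* alone, at 654 to 1033 FPKM with vehicle and 839 to 1213 with rFGF4, made up most of the thick ascending limb sum in each library. Group differences in the 3 sums gave exact permutation p-values of 0.2, 0.486 and 0.543.

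*Scnn1g* and *Scnn1b* are neighbours on chromosome 7 and are read in the same direction. In GENCODE M21 (GRCm38), *Scnn1g* lies at chr7:121734479-121768475 and *Scnn1b* at chr7:121865038-121918514, both on the plus strand, with 96562 bases and 1 other annotated gene between them. The 250 bases before the RefSeq start of each (GRCm38.p6, plus strand, chr7:121734229-121734478 and chr7:121864788-121865037) are shown because their ratio was the one of 6 ratios between the 10 genes whose groups did not overlap. The upstream bases of *Kcnj1* (chr9:32393735-32393984, plus strand, before a RefSeq start inside the GENCODE gene) are shown for their matches to AGAACA, the half-site bound by steroid receptors, which stand in capitals.
Scnn1g: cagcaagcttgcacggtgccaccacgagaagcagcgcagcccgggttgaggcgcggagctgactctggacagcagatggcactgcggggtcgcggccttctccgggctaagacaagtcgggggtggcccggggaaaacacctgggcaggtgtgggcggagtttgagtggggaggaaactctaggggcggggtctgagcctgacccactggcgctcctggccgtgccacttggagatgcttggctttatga
Scnn1b: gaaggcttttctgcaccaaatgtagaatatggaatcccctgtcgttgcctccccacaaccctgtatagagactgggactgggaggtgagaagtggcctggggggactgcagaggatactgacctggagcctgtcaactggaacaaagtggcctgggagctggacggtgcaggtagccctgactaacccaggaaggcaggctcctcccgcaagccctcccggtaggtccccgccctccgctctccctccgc
Kcnj1: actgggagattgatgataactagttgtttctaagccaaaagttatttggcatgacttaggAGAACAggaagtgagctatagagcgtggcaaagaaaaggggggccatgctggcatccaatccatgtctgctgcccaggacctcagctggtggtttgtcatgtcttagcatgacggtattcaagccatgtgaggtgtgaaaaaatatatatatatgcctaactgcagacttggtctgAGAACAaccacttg
These windows hold no base of a GENCODE exon of their own gene, and exons of other genes were not checked. RefSeq upstream sequence was available for 9 of the 10 genes, all but *Scnn1a*. Searched on both strands, AGAACA was found in 1 of the 9, *Kcnj1*, with its first base 190 and 14 bases before the start, and in 16.1% of 32851 upstream regions of the same length. GTTAAT, the HNF1 half-site, was found in *Umod* only, 202 bases before the start, and in 6.43% of all regions. TATAAA was found in *Slc12a3* only, 32 bases before the start, and in 12.4% of all regions. AAGGTCA, the half-site of estrogen-related receptors, was found in none of the 9 and in 4.08% of all regions. None of these matches was tested as a binding site.

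Across the 8 kidneys the 10 genes spanned from 928 FPKM for *Umod* to 5.79 FPKM for *Klhl3* (means of 8). Below *Umod* came *Slc12a1* at 162, *Slc12a3* at 79.1, *Kcnj1* at 68.8 and *Wnk4* at 56.5. The ENaC subunits followed at 47.5 for *Scnn1a*, 18.4 for *Scnn1b* and 15.7 for *Scnn1g*, and *Wnk1* stood at 10.8. Of the 9 neighbouring pairs in this order, 8 differed across libraries in a two-sided exact sign-flip test of the log2 ratio of their FPKM. The adjusted sign-flip p-values of these 8 pairs were 0.0176 to 0.0352. The exception was *Slc12a3* and *Kcnj1*, where *Slc12a3* was higher in 6 of 8 libraries (exact sign-flip p = 0.742). The smallest differences that passed were those of *Scnn1b* over *Scnn1g* and of *Kcnj1* over *Wnk4*, each with a geometric mean ratio of 1.198. For *Scnn1b* and *Scnn1g* this pools vehicle means of 18.6 and 18.2 FPKM with rFGF4 means of 18.1 and 13.2.

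The question the comparison addresses is whether treated diabetic kidneys differed from untreated ones in the expression of these genes. None of the 10 genes passed a test. The limma fit over all 15150 tested genes called none of the 10 at the study's threshold (unadjusted p under 0.05 with a fold of at least 1.5 or at most 0.67), which 1.53% of tested genes passed (0.442% lower and 1.09% higher with rFGF4). None of the 10 had an unadjusted p under 0.05, against 4.62% of tested genes (1.06% lower and 3.56% higher). No tested gene reached an adjusted p under 0.05, and the adjusted p-values of the 10 genes were 0.918 to 0.990. In none of the 10 were the groups free of overlap, as they were in 3.33% of tested genes (0.667% lower and 2.66% higher). For 9 of the 10, all but *Umod*, the estimate lay below 0, as it did for 32.9% of tested genes. Without rFGF4 mouse 1 this count was 6, against 47.8% of tested genes. With libraries scaled to the sum without mitochondrial genes it was 7, and with scaling to a common median ratio it was 9. The median log2 fold change was -0.29 for the 10 genes and 0.09 for all tested genes, and without rFGF4 mouse 1 the medians were -0.11 and 0.01. With scaling to the sum without mitochondrial genes they were -0.19 and 0.16, and with the common median ratio -0.41 and -0.01.

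How many genes of the whole table were called lower or higher depended on the scaling. Among tested genes with an unadjusted p under 0.05, 161 were lower and 539 higher as deposited. With libraries scaled to a common median ratio, 370 were lower and 340 higher, and with scaling to the sum without mitochondrial genes, 87 were lower and 1042 higher.

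**Figure D1:**
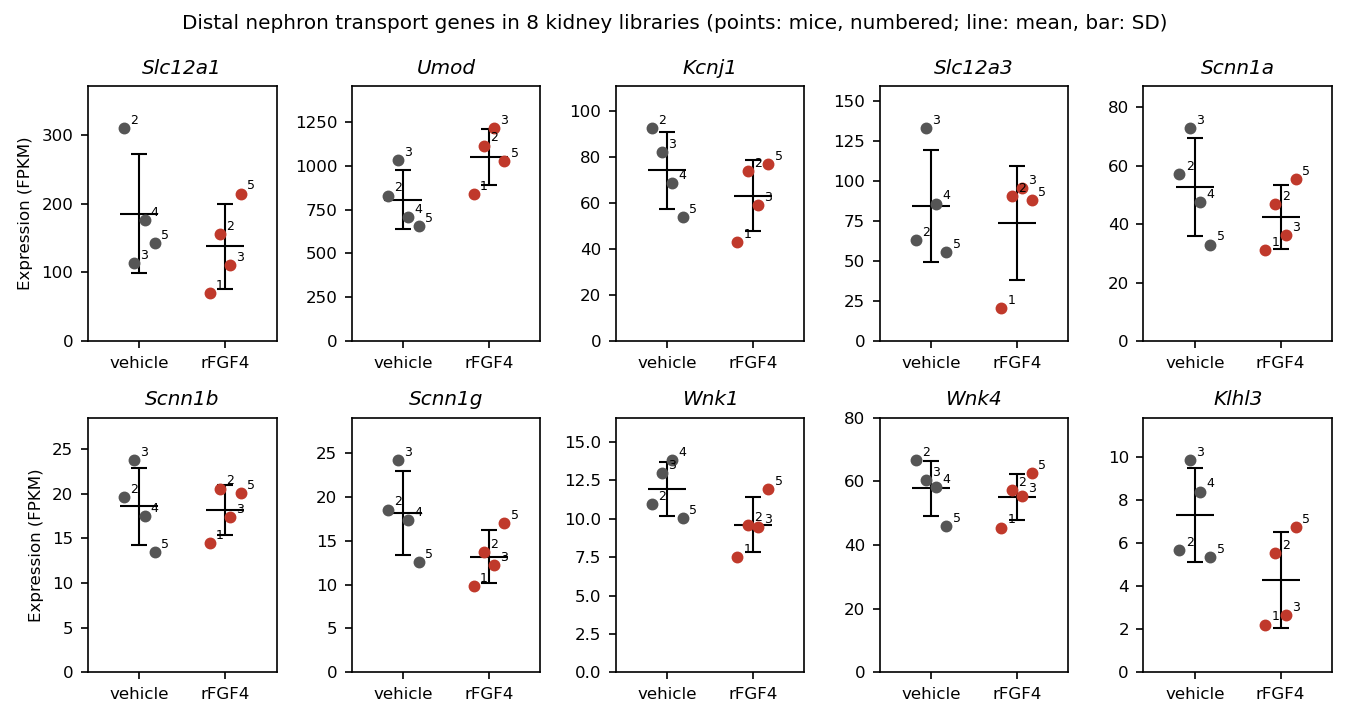
FPKM of the 10 genes (y axes, each starting at 0) in the vehicle group (grey) and the rFGF4 group (red); each point is 1 mouse with its number, the horizontal line is the mean and the bar the SD (n = 4). The groups overlap for every gene, and rFGF4 mouse 1 is the lowest point for 8 of the 10 genes.

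In the thick ascending limb, *Slc12a1* (chr2:125152505-125230002, plus strand) had 310, 114, 177 and 143 FPKM in vehicle mice 2, 3, 4 and 5. In rFGF4 mice 1, 2, 3 and 5 it had 70.3, 155, 111 and 215. Vehicle mouse 2 was the highest and rFGF4 mouse 1 the lowest of the 8, a 4.41-fold range, and the other 6 values interleaved. The means were 186 ± 86.6 and 138 ± 62.0 FPKM (SD, n = 4), and the log2 fold change was -0.44 ± 0.40 (SE; 95% interval -1.36 to 0.48, limma p = 0.306, exact permutation p = 0.371). The difference was smaller than the SD of either group, and the interval includes a halving. It was -0.16 on the log2 scale without rFGF4 mouse 1, -0.16 without vehicle mouse 2 and -0.69 without rFGF4 mouse 5.

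*Umod* was the only gene of the 10 whose mean was higher with rFGF4. It had 829, 1033, 708 and 654 FPKM in vehicle mice 2, 3, 4 and 5, and 839, 1115, 1213 and 1029 in rFGF4 mice 1, 2, 3 and 5. All rFGF4 mice lay above 3 of the 4 vehicle mice, and only vehicle mouse 3 reached into their range. The means were 806 ± 168 and 1049 ± 159 FPKM (SD, n = 4), with a log2 fold change of 0.39 ± 0.21 (SE; 95% interval -0.10 to 0.87, limma p = 0.102) and an exact permutation p of 0.0857. Without rFGF4 mouse 1 the log2 fold change was 0.49 and without vehicle mouse 3 it was 0.52, both past an unadjusted p of 0.05, and without vehicle mouse 5 it was 0.30. The limma adjusted p-values in these fits were 0.636 or higher. *Umod* lies at chr7:119462711-119479282 on the minus strand and shares 539 exon bases with the antisense gene *Gm44588*. Strand was not stated for the libraries, so reads of the pair cannot be told apart.

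*Kcnj1* (chr9:32372493-32399197, plus strand) had 92.5, 82.4, 68.9 and 53.9 FPKM in vehicle mice 2, 3, 4 and 5. With rFGF4 it had 43.2, 73.9, 59.1 and 76.9 in mice 1, 2, 3 and 5. The lowest values were those of rFGF4 mouse 1 and vehicle mouse 5, the libraries that stood apart, and the groups overlapped. The log2 fold change was -0.24 ± 0.23 (SE; 95% interval -0.77 to 0.29, limma p = 0.335, exact permutation p = 0.4). It was -0.07 without rFGF4 mouse 1, -0.12 without vehicle mouse 2, -0.38 without vehicle mouse 5 and -0.21 without both libraries that stood apart.

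In the distal convoluted tubule, *Slc12a3* (chr8:94329201-94366214, plus strand) had 63.2, 133, 86.0 and 55.7 FPKM in vehicle mice 2, 3, 4 and 5. rFGF4 mouse 1 had 20.5, while rFGF4 mice 2, 3 and 5 had 90.8, 95.8 and 88.2. Thus 3 rFGF4 mice lay within a narrow band inside the vehicle range, and the remaining one was below every other mouse. The log2 fold change was -0.33 ± 0.51 (SE; 95% interval -1.51 to 0.85, limma p = 0.539, exact permutation p = 0.8), the widest interval of the 10 genes. It became 0.20 without rFGF4 mouse 1 and 0.03 without both libraries that stood apart, so its direction rested on 1 library. The part of the low proximal and high injured tubule markers of that mouse in this value was not tested.

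Among the ENaC subunits, *Scnn1a* (chr6:125320659-125344943, plus strand) had 57.1, 72.7, 47.7 and 33.0 FPKM in vehicle mice 2, 3, 4 and 5, and 31.0, 46.9, 36.4 and 55.4 in rFGF4 mice 1, 2, 3 and 5. Vehicle mice 2 and 3 lay above every rFGF4 mouse and rFGF4 mouse 1 below every vehicle mouse, while the other 5 mice overlapped. The estimated change was -0.28 ± 0.27 (SE; 95% interval -0.90 to 0.33, limma p = 0.319, exact permutation p = 0.371). It was -0.15 without rFGF4 mouse 1, -0.11 without vehicle mouse 3 and -0.48 without vehicle mouse 5.

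*Scnn1b* had 19.6, 23.8, 17.5 and 13.5 FPKM in vehicle mice 2, 3, 4 and 5, and 14.5, 20.6, 17.4 and 20.1 in rFGF4 mice 1, 2, 3 and 5. All rFGF4 values lay inside the vehicle range, and the means were 18.6 ± 4.28 and 18.1 ± 2.81 FPKM (SD, n = 4). The log2 fold change was -0.02 ± 0.19 (SE; 95% interval -0.45 to 0.41, limma p = 0.921, exact permutation p = 0.943). Its sign turned when rFGF4 mouse 1 was left out (0.08), and when vehicle mouse 2 (0.01) or vehicle mouse 3 (0.10) was.

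*Scnn1g* had 18.5, 24.2, 17.4 and 12.5 FPKM in vehicle mice 2, 3, 4 and 5. In rFGF4 mice 1, 2, 3 and 5 it had 9.78, 13.7, 12.2 and 17.0. Vehicle mouse 5 was the only vehicle mouse within the rFGF4 range, and 3 vehicle mice lay above every rFGF4 mouse. The means were 18.2 ± 4.78 and 13.2 ± 2.998 FPKM (SD, n = 4), with a log2 fold change of -0.42 ± 0.22 (SE; 95% interval -0.93 to 0.08, limma p = 0.0898) and an exact permutation p of 0.114. Without vehicle mouse 5 the log2 fold change was -0.58 (limma adjusted p = 0.620) and without rFGF4 mouse 5 it was -0.55 (limma adjusted p = 0.528), both past an unadjusted p of 0.05 and the former also past the study's threshold. Without rFGF4 mouse 1 it was -0.30, which did not pass.

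Among the regulators, *Wnk1* (chr6:119923969-120038672, minus strand) had 11.0, 13.0, 13.8 and 10.0 FPKM in vehicle mice 2, 3, 4 and 5, and 7.51, 9.57, 9.48 and 11.9 in rFGF4 mice 1, 2, 3 and 5. Of the rFGF4 mice, 3 were below every vehicle mouse and mouse 5 was within the vehicle range. The log2 fold change was -0.29 ± 0.16 (SE; 95% interval -0.66 to 0.08, limma p = 0.106, exact permutation p = 0.143). Without rFGF4 mouse 5 it was -0.39, past an unadjusted p of 0.05 (limma adjusted p = 0.521). Without rFGF4 mouse 1 it was -0.19, which did not pass. The table lists 26 transcripts under the 1 value of this gene, so the short kidney-specific form, which lacks most of the kinase domain, was not separated from the full-length kinase.

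*Wnk4* was the steadiest of the 10, with a coefficient of variation of 13.3% over the 8 mice. It had 66.7, 60.5, 58.2 and 46.0 FPKM in vehicle mice 2, 3, 4 and 5, and 45.5, 57.1, 55.2 and 62.7 in rFGF4 mice 1, 2, 3 and 5. The log2 fold change was -0.06 ± 0.15 (SE; 95% interval -0.42 to 0.29, limma p = 0.683, exact permutation p = 0.629), and it was 0.02 without rFGF4 mouse 1 and 0.007 without vehicle mouse 2. *Wnk4* (chr11:101260567-101277409, plus strand) shares 306 exon bases with the antisense gene *Gm11615*.

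*Klhl3* (chr13:58000228-58113592, minus strand) had the estimate furthest from 0. It had 5.66, 9.84, 8.37 and 5.32 FPKM in vehicle mice 2, 3, 4 and 5, and 2.21, 5.54, 2.64 and 6.73 in rFGF4 mice 1, 2, 3 and 5. rFGF4 mice 1 and 3 were below every vehicle mouse, while rFGF4 mice 2 and 5 were within the vehicle range. The means were 7.30 ± 2.18 and 4.28 ± 2.20 FPKM (SD, n = 4). On the log2(FPKM + 1) scale of the fit, the fold of vehicle over rFGF4 was 1.64. The log2 fold change was -0.71 ± 0.32 (SE; 95% interval -1.45 to 0.03, limma p = 0.0573), with an exact permutation p of 0.143. It passed the study's threshold when rFGF4 mouse 2, rFGF4 mouse 5 or vehicle mouse 5 was left out, with log2 fold changes of -0.85, -0.93 and -0.83 and limma adjusted p-values of 0.995, 0.494 and 0.620. Without rFGF4 mouse 1 it was -0.51, which did not pass.

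**Figure D2:**
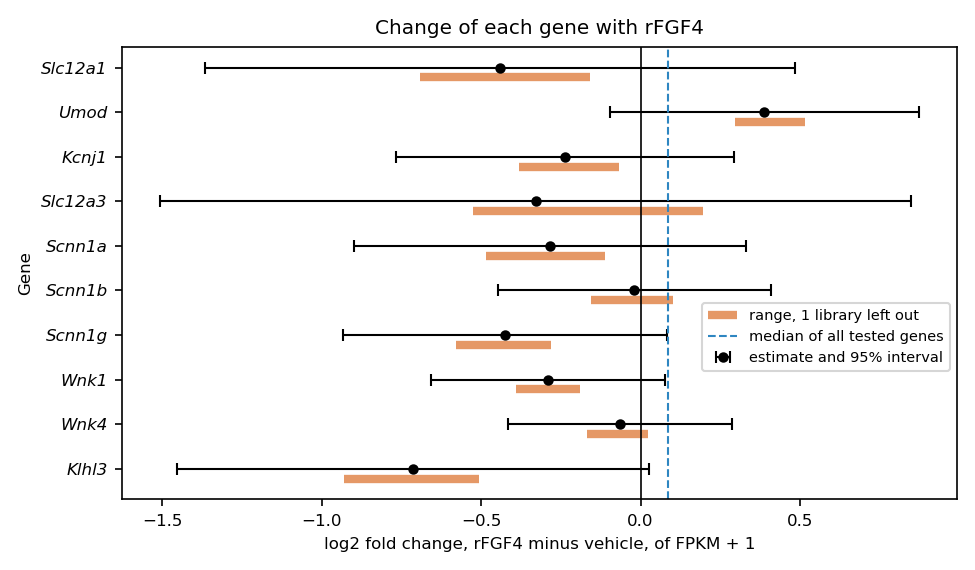
Log2 fold change of FPKM + 1, rFGF4 minus vehicle (x axis), for each of the 10 genes (y axis), with points for the limma estimate, bars for its 95% interval and orange bands for the range when 1 library is left out. All 10 intervals include 0, the bands of *Slc12a3*, *Scnn1b* and *Wnk4* cross 0, and the dashed line marks the median of all tested genes at 0.09.

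Much of the variation was shared by the genes within a mouse. rFGF4 mouse 1 was the lowest of 8 for 8 of the 10 genes, and vehicle mouse 5 for the other two, *Umod* and *Scnn1b*. Both mice were below the median of the 8 for 10 of 10 genes, with median deviations of -0.59 and -0.36 on the log2(FPKM + 1) scale. Vehicle mouse 3 was the highest for 5 genes and vehicle mouse 2 for 3, and rFGF4 mouse 5 was below the median for 0 of the 10.  In the same libraries the summed FPKM of rFGF4 mouse 1 was 389404, against 435308 to 552600 in the others, and the part of this in the low values was not tested.

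**Figure D3:**
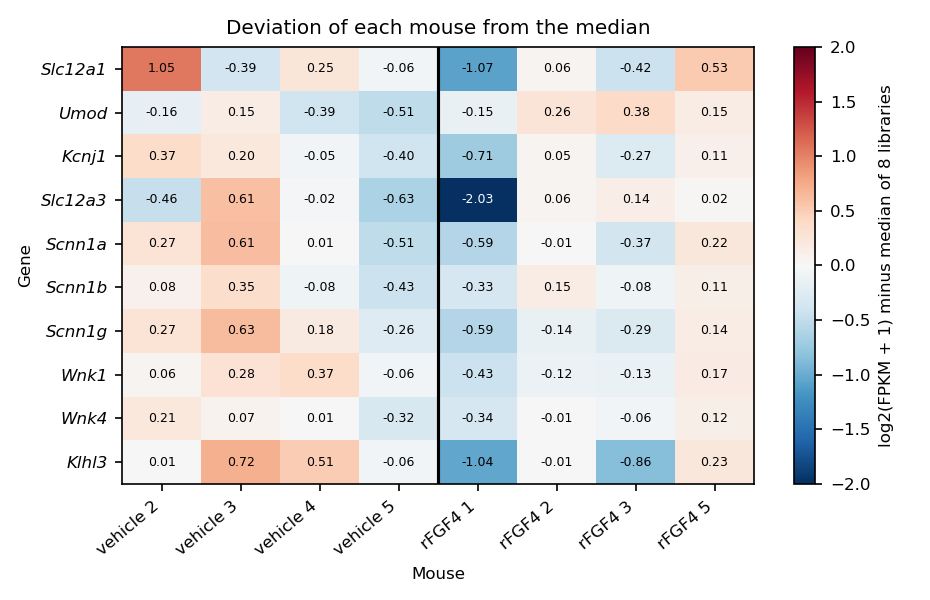
Log2(FPKM + 1) of each gene (rows) in each mouse (columns) minus the median of the 8 libraries, printed in the cells and coloured from blue (below) to red (above), with a black line between the groups. rFGF4 mouse 1 and vehicle mouse 5 are below the median for all 10 genes, and the lowest cell is *Slc12a3* in rFGF4 mouse 1 at -2.03.

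A ratio between genes of the same library cancels most of that library's scaling, though not all, since 1 is added to each FPKM, and 6 such ratios were compared. The ratio of *Scnn1g* to *Scnn1b* (FPKM + 1 of each) was 0.948, 1.02, 0.995 and 0.933 in vehicle mice 2, 3, 4 and 5. It was 0.696, 0.681, 0.719 and 0.851 in rFGF4 mice 1, 2, 3 and 5. Every rFGF4 mouse was below every vehicle mouse. The difference in log2 ratio was -0.41, for which the exact permutation test gave p = 0.0286, the lowest value that 4 against 4 can reach, and 0.171 after adjustment over the 6 ratios, so it did not pass the correction. It was -0.43 with 0.1 added in place of 1, -0.38 without rFGF4 mouse 1 and -0.43 without vehicle mouse 5, and with 1 vehicle mouse left out the exact permutation p was 0.0571.

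The ratio of *Scnn1a* to *Scnn1b* ran from 2.34 to 2.98 with vehicle and from 2.03 to 2.67 with rFGF4, a log2 difference of -0.26 with an exact permutation p of 0.0857. That of *Umod* to *Slc12a1*, both made by the thick ascending limb, ran from 2.67 to 9.01 with vehicle and from 4.77 to 11.8 with rFGF4, a log2 difference of 0.83 (exact permutation p = 0.143). The remaining log2 differences were -0.23 for *Wnk1* to *Wnk4*, 0.20 for *Kcnj1* to *Slc12a1* and 0.11 for *Slc12a3* to *Slc12a1*, with exact permutation p-values of 0.143, 0.543 and 0.857. The last of these changed sign when vehicle mouse 2 (-0.28) or rFGF4 mouse 3 (-0.15) was left out. The groups overlapped in these 5 ratios. Without vehicle mouse 2 the *Wnk1* to *Wnk4* difference was -0.33, at an exact permutation p of 0.0286.

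**Figure D4:**
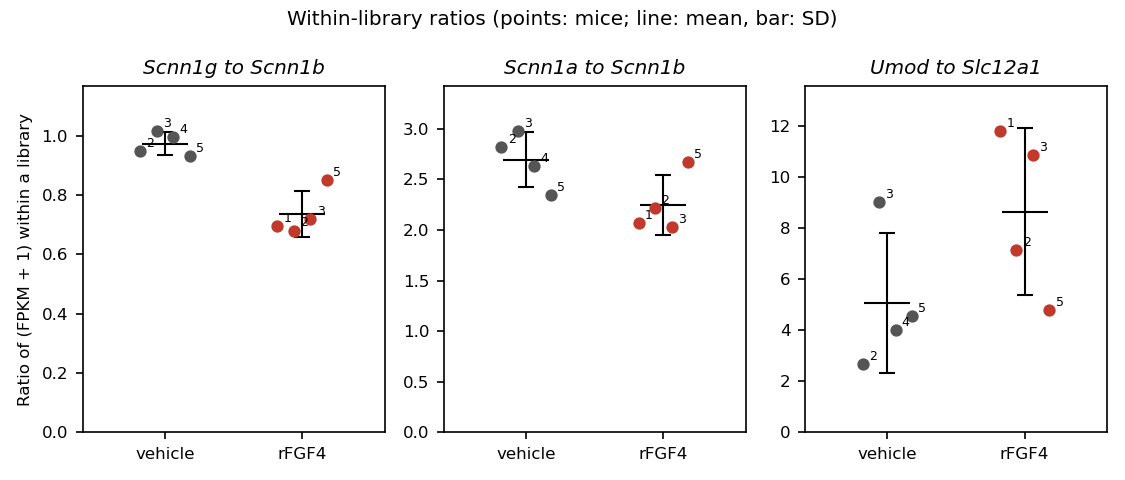
Within-library ratios of FPKM + 1 (y axes, starting at 0) for *Scnn1g* to *Scnn1b*, *Scnn1a* to *Scnn1b* and *Umod* to *Slc12a1* in vehicle (grey) and rFGF4 (red) mice; points are mice with their numbers, lines the means and bars the SD (n = 4). Only the first ratio separates the groups, with 0.933 to 1.02 in vehicle mice and 0.681 to 0.851 in rFGF4 mice.

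How closely genes of one channel or one segment varied together was examined for 6 pairs over the 8 libraries, whose values share the scaling and the cell makeup of each library. In the Pearson test over all 8 libraries, only the pair of the alpha and beta ENaC subunits passed the correction over the 6. *Scnn1a* and *Scnn1b* gave a Pearson r of 0.919 (exact permutation p = 0.00144, adjusted p = 0.00863) and a Spearman rho of 0.81 (exact permutation p = 0.0218, adjusted p = 0.110). Without the 2 libraries farthest from the median r was 0.826 (exact permutation p = 0.0306), and for deviations from the group means it was 0.971 (exact permutation p = 0.00521). *Scnn1b* and *Scnn1g* gave r = 0.796 (exact permutation p = 0.0191, adjusted p = 0.0574) and rho = 0.71 (exact permutation p = 0.0576), with r = 0.716 (exact permutation p = 0.108) without the 2 farthest libraries and r = 0.955 (exact permutation p = 0.00521) within the groups.

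The other 4 pairs did not pass the correction. *Wnk4* and *Klhl3* had r = 0.58 and rho = 0.76 (exact permutation p = 0.114 and 0.0368, adjusted p = 0.172 and 0.110). *Slc12a3* and *Wnk4* had r = 0.67 (exact permutation p = 0.0649) and rho = 0.36, and without rFGF4 mouse 1 and vehicle mouse 5 r was -0.48, so the relation rested on those libraries. *Slc12a1* and *Slc12a3* had r = 0.40 (exact permutation p = 0.327), which became -0.33 without rFGF4 mouse 1 and vehicle mouse 2. *Slc12a1* and *Umod*, products of the same cells, had r = -0.15 (exact permutation p = 0.729) and 0.13 within the groups.

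The mean of the 10 genes, each standardised over the 8 libraries, was followed most closely by *Kcnj1* (r = 0.957) and *Scnn1a* (r = 0.952) and least by *Slc12a1* (r = 0.651) and *Umod* (r = 0.323). Of the tested genes outside the 10, those most like this mean were *Sv2a* (r = 0.982), *Ndufv2* (0.970), *Etfb* (0.967), *Cox4i1* (0.963) and *Acacb* (0.962). *Ndufv2* and *Cox4i1* encode subunits of respiratory complexes I and IV, *Etfb* a subunit of the electron transfer flavoprotein, and *Acacb* acetyl-CoA carboxylase 2. These r values describe 8 libraries that share the same low mice, and no test was made.

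Genes that work with the 10 were described by 6 lists holding 59 reported genes, 53 of them tested. Among the 53, none was lower and 2 were higher with rFGF4 at an unadjusted p under 0.05, which is 3.77% against 4.62% of all tested genes, and none had an adjusted p below 0.918. The median log2 fold change over the 53 was -0.01, against 0.09 over all tested genes. Counts of calls in the lists under other fits, given below, stand beside those of all 15150 tested genes in the same fits. These were 641 without rFGF4 mouse 1, 431 without rFGF4 mouse 2, 1430 without rFGF4 mouse 5, 501 without vehicle mouse 4 and 986 without vehicle mouse 5. They were 710 with scaling to a common median ratio, 1129 with scaling to the sum without mitochondrial genes and 1817 with library weights.

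Among salt transport partners in the thick ascending limb, none of 8 tested genes was called, with a list median of -0.12, and 1 was without vehicle mouse 5. *Cldn10*, a paracellular pore protein for sodium, had 43.8 FPKM with vehicle and 36.9 with rFGF4. *Kcnj16*, a basolateral potassium channel subunit, had 4.797 to 8.11 FPKM with vehicle and 6.23 to 102 with rFGF4, and it ranked among the most abundant genes of its list only through the rFGF4 group, where the SD of 46.7 exceeded the mean of 31.8. No test of its difference is given. None of 11 tested partners in the distal convoluted tubule was called (list median -0.13), and 1 was without rFGF4 mouse 5. All 11 estimates lay below 0, as did 32.9% of all tested genes, and none passed a test with all 8 libraries. Without rFGF4 mouse 1, 7 of the 11 lay below 0, as did 47.8% of all tested genes. Of the 11, the sodium pump subunits *Atp1b1* and *Fxyd2* were the most abundant, with 751 and 334 FPKM with vehicle and 751 and 307 with rFGF4.

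None of 12 tested genes of the WNK and SPAK kinase cascade and its cotransporters was called. The list median was 0.16, and it was 0.056 without rFGF4 mouse 1. In other fits 1 was called with libraries scaled to a common median ratio and 2 with scaling to the sum without mitochondrial genes. With library weights 1 was called, as was 1 without rFGF4 mouse 5. *Cul3*, the cullin to which *Klhl3* binds, had 19.8 FPKM with vehicle and 21.6 with rFGF4, and *Rbx1*, the ring finger subunit of that ligase, had 13.6 and 13.0.

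In the list of aldosterone and glucocorticoid control, 1 of 12 tested genes was called, with a list median of 0.28. *Fkbp5*, a chaperone of steroid receptors that glucocorticoids induce, had 14.0 ± 2.06 FPKM with vehicle and 30.7 ± 12.9 with rFGF4 (SD, n = 4). Every rFGF4 mouse (18.8 to 47.7) was above every vehicle mouse (12.7 to 17.1), with a log2 fold change of 0.995 (limma p = 0.00599, adjusted p = 0.918, exact permutation p = 0.0286). Without rFGF4 mouse 5 the count of calls in this list was 5, and without vehicle mouse 5 it was 2. It was 2 with scaling to the sum without mitochondrial genes and 3 with library weights. *Hsd11b2*, which inactivates glucocorticoids in aldosterone target cells, had 70.7 FPKM with vehicle and 57.3 with rFGF4. *Sgk1*, the kinase by which aldosterone keeps ENaC at the membrane, had 33.9 and 47.8 FPKM, and in both genes the groups overlapped (exact permutation p = 0.314 and 0.486).

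Among proteases and inhibitors that act on ENaC, 1 of 7 tested genes was called, with a list median of 0.13. *Furin*, the convertase that cleaves the alpha and gamma subunits, had 14.3 ± 0.688 FPKM with vehicle and 18.5 ± 1.71 with rFGF4 (SD, n = 4). The groups did not overlap (13.5 to 14.9 and 16.0 to 19.6), and the log2 fold change was 0.35 (limma p = 0.0100, adjusted p = 0.918, exact permutation p = 0.0286). The count of calls in this list was 2 without rFGF4 mouse 1 or 2 and with scaling to the sum without mitochondrial genes, and 0 with scaling to a common median ratio. *Prss8*, prostasin, had 115 and 118 FPKM, and *Plau*, urokinase, 171 and 161. *Spint1*, an inhibitor of such proteases that was picked out after its values were seen, was the other partner gene whose groups did not overlap (25.8 to 28.3 FPKM with vehicle and 30.3 to 55.3 with rFGF4). With *Fkbp5* and *Furin* it made 3 of the 53 tested partner genes, against 3.33% of all tested genes. Without rFGF4 mouse 1 the list median was -0.0065.

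Of the other potassium channels, 3 of 6 listed genes were tested and none was called, with a list median of 0.55. *Kcnj15* had 45.9 FPKM with vehicle and 62.5 with rFGF4 (exact permutation p = 0.257), and *Kcnk5* had 19.2 and 43.9 (exact permutation p = 0.114). In both genes the groups overlapped, and 1 gene of this list was called when rFGF4 mouse 5 or vehicle mouse 4 was left out and with library weights.

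**Figure D5:**
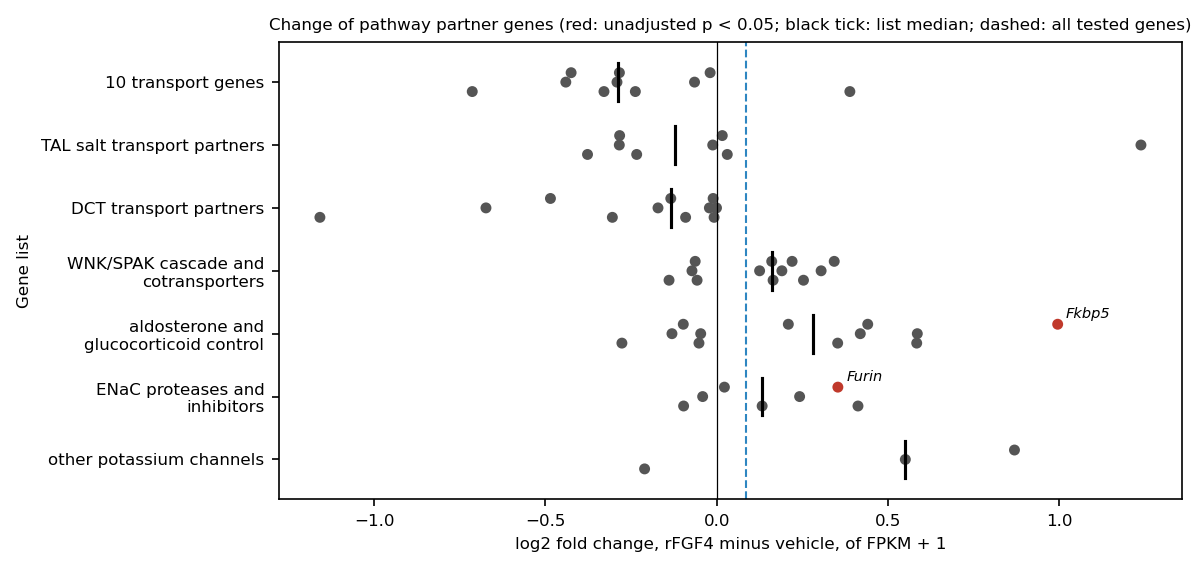
Log2 fold change of FPKM + 1, rFGF4 minus vehicle (x axis), of each tested gene in the 10 transport genes and in the 6 lists of partner genes (y axis); each point is a gene, red where the unadjusted limma p is under 0.05, black ticks are list medians and the dashed line is the median of all tested genes. None of the 10 transport genes is red, and the 2 red partner genes are *Fkbp5* and *Furin*, both higher.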

How the data were processed

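Kidney mRNA of 8 mice was sequenced in pairs of reads. The submitters' processing notes name HISAT2 2.0, Bowtie 0.12.2, StringTie 1.3.0 and the build mm8, without their roles, and the study's authors name edgeR in their methods. The authors deposited FPKM per gene, calculated with StringTie, in a table that lists 64 transcripts for the 10 genes, all of them in GENCODE M21. The table's fold changes, their log2, p-values and q-values of the authors' own comparison were not used. A value of 0.0001 was taken to stand for 0. No count table was used, so log2(FPKM + 1) was compared with limma 3.58.1 in R 4.3.3 (a trend in the prior variance, Benjamini-Hochberg adjustment) for the 15150 genes that reached 0.5 FPKM in at least 4 of the 8 libraries, and the study's threshold was applied to this fit. Fold changes on this scale understate the change of low genes. Single genes and ratios were compared by two-sided exact permutation tests over the 70 splits of 8 libraries. With 1 library per mouse, p-values measure the spread between mice. Levels of neighbouring genes were compared by exact sign-flip tests.

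Gene positions came from GENCODE M21 on GRCm38, which holds 55141 of the 55401 identifiers, and upstream sequences from RefSeq on GRCm38.p6. The 10 genes and all lists were chosen with earlier results of these data known. Certain genes of the partner lists are not reported here and were left out of every count and median of those lists. The text names all 10 genes, the partner genes with an unadjusted p under 0.05, the 2 most abundant tested genes of each partner list and the 5 tested genes most like the mean of the 10. *Spint1* was named outside these rules, after its values were seen. Besides the segments in the report, markers of 10 other cell types and states were summed. The exact permutation p of each of those was at least 0.114. The procedure was tested on simulated data. The alternatives were another pseudocount, other filters, scalings and fold thresholds, library weights, no trend, each mouse left out and a block for the shared numbers. The same 6 libraries without the block, and the removal of both libraries of low weight, were added after seeing the data. The labels do not say whether numbers shared by the groups (2, 3 and 5) mark pairs, and the main tests treated the mice as unpaired. Python 3.11.15 with matplotlib 3.10.9 made the figures.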

Additional observations from a re-analysis of the deposited data

Results flagged for a closer look

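In a group of 4, Dixon's 95% criterion picks out the highest or lowest mouse when its gap to the next mouse is too large a share of the range. This was examined in 60 groups of named genes and ratios, of which about 3 would pass by chance and 4 did. *Slc12a3* in rFGF4 mouse 1 was far below the other rFGF4 mice, with a share of 0.946 of the range. *Atp1b1* was also lowest in rFGF4 mouse 1, with a share of 0.891. *Fkbp5* was highest of the vehicle group in vehicle mouse 3 (0.870), and *Furin* was lowest of the rFGF4 group in rFGF4 mouse 5 (0.850).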

How the results depend on the processing

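Without counts the depth behind each value is unknown, so counting error could not be given, and 4 mice a group leave wide intervals: 3 of the 10 include a halving. None of the 10 genes passed an adjusted p under 0.05 under any alternative. Of 488 combinations of a result and a setting, 400 kept their direction and side of the threshold or stayed within 1.5 times the count, 46 counts moved further, 22 values changed sign, 14 passed a threshold they had missed and 6 no longer passed one. The cause was not tested. Another pseudocount, a minimum FPKM of 1, the common median ratio and the fit without the trend gave none of the changes below for the 10 genes or all genes.

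With no filter on low values, 1232 genes had an unadjusted p under 0.05 and 1 an adjusted p under 0.05. Requiring a fold of at least 2 left 54 genes past the study's threshold. Scaling to the sum without mitochondrial genes gave log2 fold changes of 0.49 for *Umod* (limma adjusted p = 0.621), 0.075 for *Scnn1b* and 0.033 for *Wnk4*, with 1 of the 10 genes and 1129 of all genes at an unadjusted p under 0.05. Library weights gave 0.48 for *Umod*, 0.057 for *Slc12a3*, 0.016 for *Scnn1b*, -0.42 for *Scnn1g* and -0.30 for *Wnk1* (limma adjusted p = 0.391 for *Umod*, 0.395 for *Scnn1g* and 0.411 for *Wnk1*), with 3 of the 10 genes and 1817 of all genes at an unadjusted p under 0.05 and 496 past the study's threshold. Without both libraries of low weight, *Slc12a3* was at 0.028 and *Scnn1g* at -0.46 (limma adjusted p = 0.753), the 1 gene of the 10 at an unadjusted p under 0.05, as were 860 of all genes.

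The numbers 2, 3 and 5 are shared by the groups, and the labels do not say whether they mark pairs. Deviations of same-numbered mice correlated at -0.23, -0.16 and -0.39, too few values to decide this. With a replicate block on these 6 libraries, the log2 fold changes were 0.23 for *Slc12a3*, 0.059 for *Scnn1b* and 0.030 for *Wnk4*, 395 genes had an unadjusted p under 0.05 (0 of the ENaC proteases and inhibitors and 1 of the other potassium channels among them), and the *Scnn1g* to *Scnn1b* difference was -0.37 (exact permutation p = 0.25, the smallest that 3 pairs allow). The same 6 libraries without the block gave the same 0.23, 0.059 and 0.030.

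With 1 mouse left out, the log2 fold changes ranged from -0.69 to -0.16 for *Slc12a1*, 0.30 to 0.52 for *Umod*, -0.38 to -0.07 for *Kcnj1*, -0.48 to -0.11 for *Scnn1a*, -0.53 to 0.20 for *Slc12a3*, -0.15 to 0.10 for *Scnn1b*, -0.58 to -0.28 for *Scnn1g*, -0.39 to -0.19 for *Wnk1*, -0.17 to 0.023 for *Wnk4* and -0.93 to -0.51 for *Klhl3*. Of the 10 genes, 0 to 2 passed the study's threshold, 0 to 3 had an unadjusted p under 0.05 and 6 to 9 were lower. Of all genes, 188 to 580 passed the study's threshold, 431 to 1430 had an unadjusted p under 0.05 and 0 to 1 an adjusted one, with 580 past the study's threshold without rFGF4 mouse 5 and 434 without vehicle mouse 5. The log2 ratio differences ranged from -0.28 to 0.55 for *Slc12a3* to *Slc12a1*, 0.04 to 0.46 for *Kcnj1* to *Slc12a1*, 0.57 to 1.16 for *Umod* to *Slc12a1*, -0.35 to -0.21 for *Scnn1a* to *Scnn1b*, -0.48 to -0.37 for *Scnn1g* to *Scnn1b* and -0.33 to -0.16 for *Wnk1* to *Wnk4*. Of the relations, r became 0.13 for *Slc12a1* with *Umod* within the groups, and without the 2 farthest libraries -0.33 for *Slc12a1* with *Slc12a3*, 0.716 for *Scnn1b* with *Scnn1g* and -0.48 for *Slc12a3* with *Wnk4*.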
